A study of Mus musculus with 20 samples.

Results

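Mouse intestinal organoids labelled AKFP were compared with wild type organoids, with 2 RNA-seq libraries on each side, 4 of the 20 libraries of the series. AKFP stands for *Ascl2*, *Klf9*, *Fosb* and *Purb*, the factors that a retrovirus was to overexpress in organoids that had lost *Mettl3*, the catalytic subunit of the enzyme that writes the m6A mark on RNA. Of 54838 genes listed, 50502 lie on autosomes, and the 11783 of these at 1 FPKM or more in at least 2 of the 4 libraries were tested. The FPKM unit divides a gene's fragments by its length and by the library's size, so levels of different genes are given per length. The comparison asks which genes of the organoids with the factors differed from the wild type and which lay at its level.

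The wild type (WT) organoids had the genotype "Wild type" and received ethanol (EtOH) for 2 days. The AKFP organoids had the genotype Mettl3-/-, carried the 4-factor retrovirus and received 4-hydroxytamoxifen (4-OHT) for 2 days. Knockout (KO) organoids without virus and AKF organoids, with *Ascl2*, *Klf9* and *Fosb* only, had 2 libraries each, were also Mettl3-/- and received 4-OHT for 2 days. The labels give C57BL/6 as the strain of all of them and derive the organoids from mice with a Mettl3fl/fl allele, an Lgr5-EGFP-IRES-CreERT2 allele and a Villin-CreERT2 transgene, which drives the recombinase in the whole epithelium. Virus and puromycin selection apply to the AKF and AKFP organoids, and 4-OHT was to start both the deletion and the overexpression, so AKFP and WT organoids differed in genotype, virus, selection and drug together. These cannot be told apart here, and no WT organoids with the factors are among the libraries used. The titles of the WT and KO libraries hold "m3-flag", whose meaning is not given in the sources used here. All organoids grew in Matrigel in a medium with EGF, Noggin and R-spondin, and living cells were sorted before RNA extraction.

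Intestinal crypts hold stem cells marked by *Lgr5* and *Olfm4* that renew under Wnt signals, next to Paneth cells that secrete antimicrobial peptides. Their daughters become absorptive enterocytes or, where Notch signalling is low, secretory cells: Paneth, goblet, enteroendocrine and tuft cells. Loss of m6A can expose double-stranded RNA in the cell, which cytosolic sensors answer with an interferon response. *Ascl2* is a Wnt-driven transcription factor of the stem cell, *Klf9* a zinc finger factor, *Fosb* a component of the AP-1 transcription factor, and *Purb* a protein that binds purine-rich single strands.

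Before the results, the libraries labelled AKFP stood apart from the other 6 organoid libraries in genes that mark an animal's sex and strain. *Xist*, the RNA of the inactive X chromosome, was at 47.5 and 33.3 FPKM in the AKFP libraries and at 0.015 or less in the others. The Y-linked genes *Kdm5d*, *Uty*, *Ddx3y* and *Eif2s3y* were listed at 0 in both AKFP libraries and at 1.58 to 18.5 FPKM in the other 6. *Pla2g2a* (chr4:138831857-138835186, plus strand, mm10), a secreted phospholipase of Paneth cells, lay at 9.17 and 8.17 FPKM in WT, 14.6 and 11.5 in KO, 15.7 and 15.4 in AKF, and 610.2 and 591.9 in AKFP. C57BL/6 mice are known to carry a disrupted allele of *Pla2g2a*, and the annotation lists it as a polymorphic pseudogene. Both AKFP libraries share this pattern, so no AKFP value can be given without it: every difference below is that of the AKFP line, and a difference of line or sex cannot be told apart from the factors. In a separate run over all chromosomes, 75 of 356 genes of the X chromosome were called higher and 70 lower in AKFP (40.7% called).

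Differences below are AKFP minus WT on the log2(FPKM + 1) scale, ± standard error (SE), from limma over all 8 organoid libraries, and a gene was called at an adjusted p under 0.05. The scale understates the change of genes with low levels. A gene was taken to read like WT where the 95% interval of its difference lay within 1.5-fold either way.

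The factors themselves did not all follow the label. *Ascl2* was at 10.7 and 12.1 FPKM in WT and 19.04 and 19.19 in AKFP, above WT in both libraries (0.70 ± 0.07, adjusted p = 0.000586), while the AKF libraries held 36.8 and 38.6. *Klf9* was at 5.66 and 5.78 in WT and at 36.0 and 38.4 in AKFP (2.51 ± 0.07, adjusted p = 5.54e-06), above the 11.1 and 10.7 of AKF. *Fosb* fell: it was at 31.8 and 33.2 in WT and at 12.4 and 9.77 in AKFP (−1.48 ± 0.18, adjusted p = 0.00108). The AKF libraries, whose virus also carries *Fosb*, held 25.8 and 26.7, not called against WT (−0.30), and the KO libraries 38.2 and 25.4. *Purb* (chr11:6467599-6475917, minus strand), the factor that AKFP has beyond AKF, was at 22.9 and 25.5 in WT and at 19.5 and 16.5 in AKFP, below WT in both libraries (−0.41 ± 0.12, adjusted p = 0.0254), and the KO libraries held 14.3 and 17.1. The *Purb* call did not pass without WT library 1 (adjusted p = 0.0504), WT library 2 (0.118) or AKFP library 2 (0.133). Neither *Fosb* nor *Purb* was thus above WT in the libraries labelled AKFP. KO organoids, which had no virus, had 1 of the 4 factors called higher than WT and 1 lower. *Fosb* was not called there and *Purb* was not above WT, so the higher call was in *Ascl2* or *Klf9*. How much RNA of the vector the values hold was not tested. *Mettl3* was at 3.23 and 3.56 in WT and 3.78 and 4.22 in AKFP (0.19 ± 0.08, adjusted p = 0.129), a value for the whole gene that does not check the deletion of exons.

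**Figure D1:**
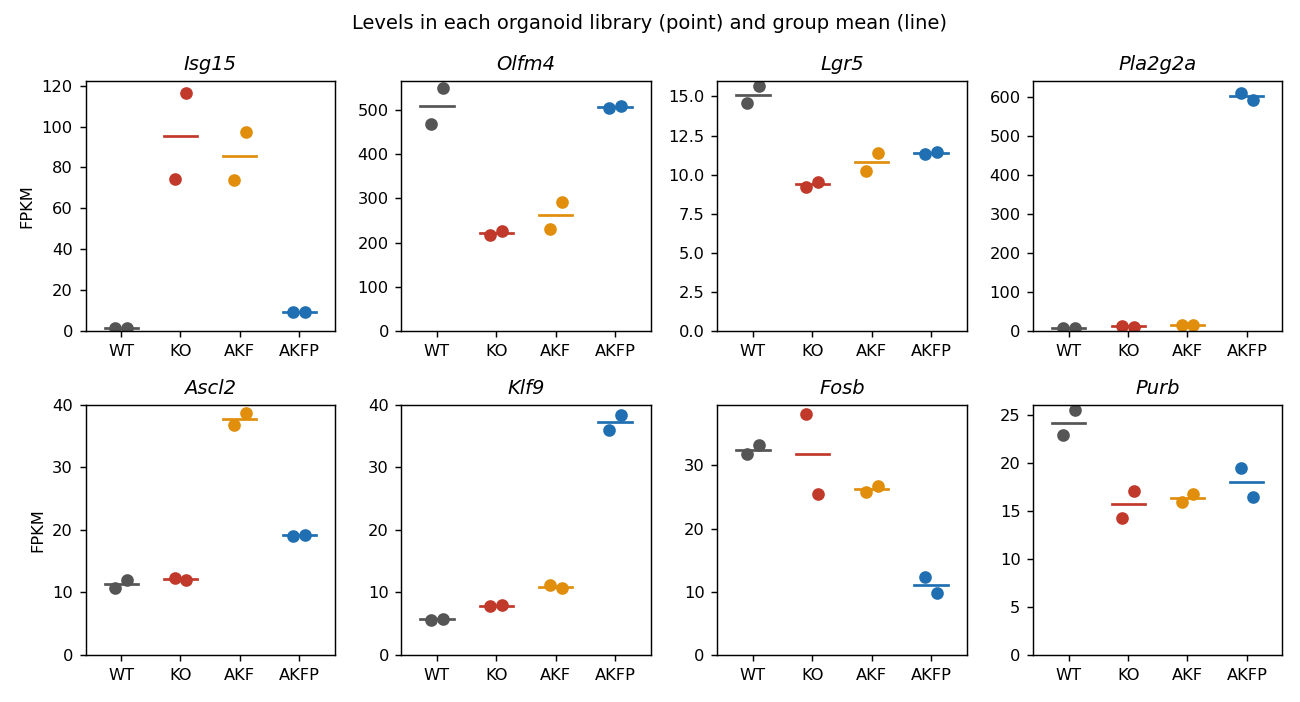
Levels in FPKM of Isg15, Olfm4, Lgr5, Pla2g2a and the factors Ascl2, Klf9, Fosb and Purb in the 8 organoid libraries, by group (WT, KO, AKF, AKFP), with points for libraries and lines for group means. Olfm4 in AKFP (504.0 and 509.1) lies between the WT libraries, Isg15 (9.62 and 9.23) lies between WT and KO, Pla2g2a reaches 610.2 in AKFP only, and Fosb and Purb are lower in AKFP than in WT.

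Epithelial markers were at like levels on both sides, with a summed level of 5131 and 4805 FPKM in WT and 4873 and 4894 in AKFP. Of 12, 8 read like WT, among them *Epcam* (−0.09) and *Krt8* (−0.13), while the adhesion molecule *Cdh1* (0.62) and the tight junction gene *Cldn3* (0.58) rose and the lectin *Lgals4* fell (−0.59). Of 19 immune cell markers, 17 were under 1 FPKM, *Ptprc* was listed at 0, and the list summed to 4.54 and 3.51 in WT and 5.78 and 6.20 in AKFP. Of 18 stromal and endothelial markers, 16 were under 1 FPKM and *Col3a1* and *Cdh5* were listed at 0. That list summed to 4.62 and 4.55 in WT and 9.37 and 10.6 in AKFP, with *Lyve1* (3.79 and 3.54 in WT, 7.28 and 8.31 in AKFP) as its largest member. Estimated depth was 19800000 to 21800000 fragments in the AKFP and WT libraries and 18100000 to 24600000 over all 8, and 11816 to 11898 genes reached 1 FPKM in the 4 compared.

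Of the 11783 tested genes, 3044 were called higher (25.8%) and 2268 lower (19.2%) in AKFP than in WT. The 95% interval of 6075 (51.6%) lay within 1.5-fold of the WT level, 1181 of which were also called. In all 5312 called genes the AKFP and WT libraries did not overlap, but this also held for 3543 genes that were not called. Most called differences were small: their median size was 0.53, and 722 of them (13.6%) exceeded 2-fold. The same fit called 3353 genes (28.5%) between KO and WT, 3583 (30.4%) between AKF and WT and 3082 (26.2%) between AKFP and KO. Of these, 1955 were higher and 1398 lower in KO than in WT, and 1591 higher and 1491 lower in AKFP than in KO. These comparisons share the WT or the AKFP libraries, so their values are only set side by side below. Counts of list members are to be read against the same counts over all 11783 genes. The filter used only the AKFP and WT libraries, so genes that reached 1 FPKM in KO or AKF alone were left out of all these counts. A list's counts cover the members that passed the filter on low values, and a member that passed only through the group where it is high was bound to differ. Without 1 of the 4 compared libraries, 3417 to 4070 genes were called between AKFP and WT.

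**Figure D2:**
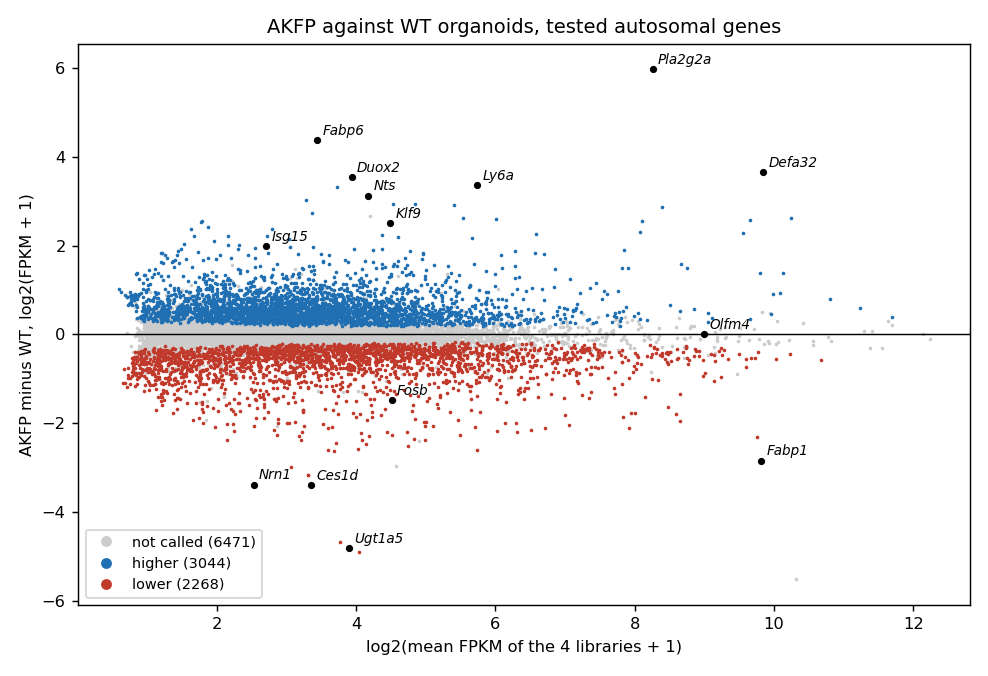
Difference AKFP minus WT on the log2(FPKM + 1) scale (vertical axis) against the mean level of the 4 libraries (horizontal axis, log2), with 1 point per tested gene, coloured where called higher (3044) or lower (2268). Pla2g2a, Fabp6 and Defa32 lie at the top and Ugt1a5, Ces1d and Nrn1 near the bottom, while Olfm4 lies at 0.

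**Figure D3:**
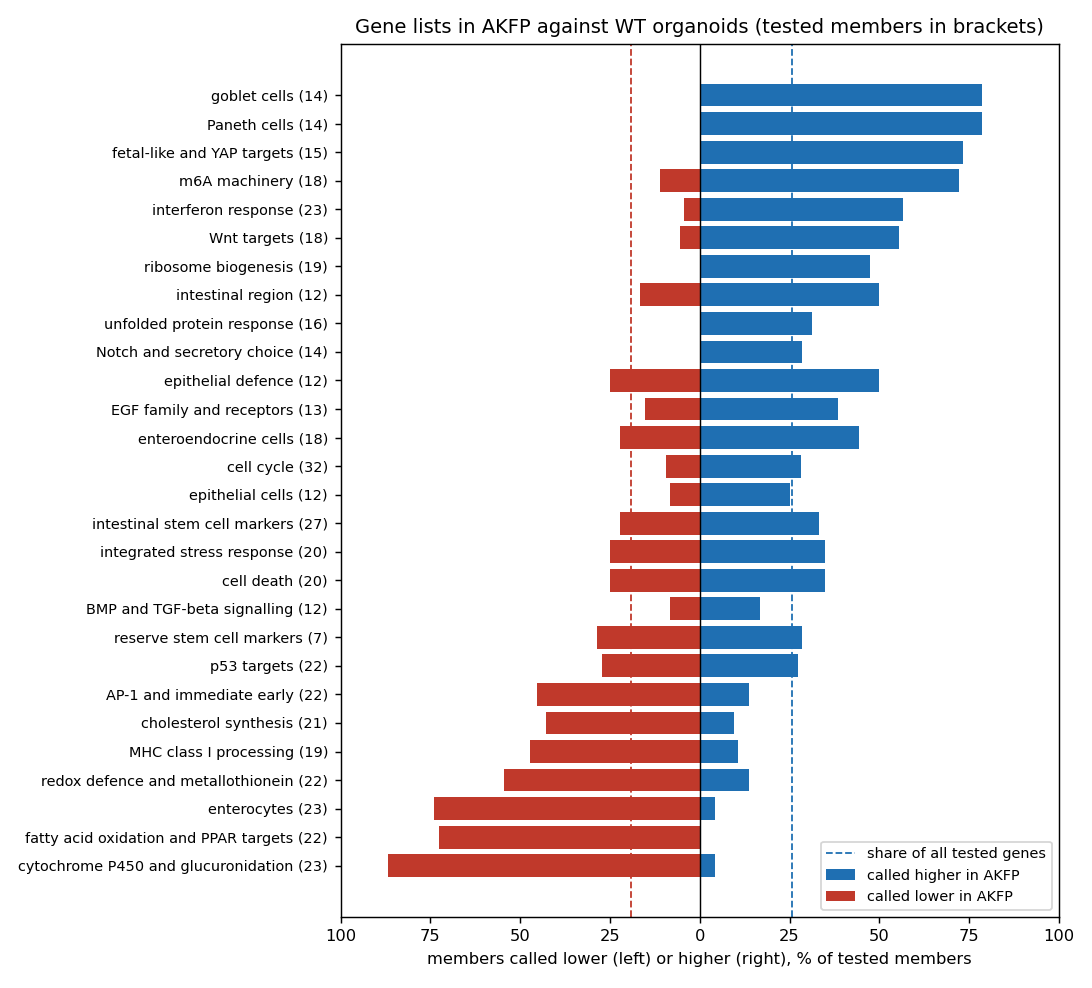
Percent of the tested members of each gene list called higher (to the right) or lower (to the left) in AKFP than in WT, for the 28 lists with at least 7 tested members, with dashed lines at the shares over all tested genes (25.8% and 19.2%). Paneth, goblet and fetal-like lists extend furthest to the right, and P450, enterocyte and fatty acid oxidation lists furthest to the left.

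Part of the interferon response genes were above WT in AKFP, at lower levels than in the knockout without factors. *Isg15* (chr4:156199424-156200818, minus strand), a ubiquitin-like modifier induced by interferon, was at 1.54 and 1.71 FPKM in WT, 9.62 and 9.23 in AKFP and 74.2 and 116.5 in KO. The AKFP libraries lay above both WT libraries and below both KO libraries, with a difference of 1.99 ± 0.21 from WT (adjusted p = 0.000602) and of −3.17 ± 0.21 from KO (adjusted p = 0.000371). Of the 35 listed interferon genes, 23 passed the filter on low values: 13 were called higher, 1 lower, and 2 read like WT, with a median difference of 0.85 beside 0.05 over all tested genes. For the same 23 genes, KO against WT gave 22 higher and a median of 2.06, and AKFP against KO gave 19 lower. *Ifit1*, *Oasl2* and *Rtp4*, for example, passed the filter only through AKFP, so they were bound to differ from WT. Members low in AKFP and WT were left out, as *Oas3* was (5.19 and 6.86 FPKM in KO, 0.782 and 0.947 in AKFP). The counts and the median thus depend in part on the filter. The summed level of the list was 193.0 and 212.5 FPKM in WT, 340.3 and 382.7 in AKFP and 689.3 and 907.2 in KO. *Lgals3bp*, whose levels are given below, was the largest member of the sum in WT and AKFP. A large part of the sum's rise over WT in AKFP came from that gene. With WT library 1 left out, 5 members were called higher, and with either AKFP library left out 7.

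Promoter stretches of 4 members are shown because they carry the letters of the element bound by the interferon-activated factors and because their genes behaved unlike each other in AKFP: *Isg15* and *Ifit1* rose, *Oas1a* read like WT and *Bst2* was not called. Capitals mark matches to GAAA, any 2 bases and GAAA again, searched on both strands with overlapping matches counted, in RefSeq windows (GRCm38.p6) from 250 bases before to 50 after the gene start. All 4 stretches lie upstream of the gene start and are written 5′ to 3′ on the gene's strand.
Isg15: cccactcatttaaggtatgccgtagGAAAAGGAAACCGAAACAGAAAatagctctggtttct
Ifit1: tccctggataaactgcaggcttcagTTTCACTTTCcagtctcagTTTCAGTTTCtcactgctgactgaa
Oas1a: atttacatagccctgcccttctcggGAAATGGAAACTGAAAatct
Bst2: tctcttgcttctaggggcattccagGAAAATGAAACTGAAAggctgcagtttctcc
The *Isg15* stretch (chr4:156200860-156200921, minus strand) holds 3 matches from 78 to 56 bases before the start, and the *Ifit1* stretch (chr19:34640760-34640828, plus strand) 2 from 104 to 75 bases. The *Oas1a* stretch (chr5:120907526-120907570, minus strand) holds 2 matches from 20 to 4 bases before the start, and the *Bst2* stretch (chr8:71537572-71537627, minus strand) 2 from 130 to 114 bases. Of the 35 list members 25 matched a window by symbol, and 14 of 25 (56.0%) held a match, beside 1079 of 27025 promoters over all genes (3.99%). Members called higher in AKFP held one in 7 of 11 windows (63.6%) and tested members not called higher in 5 of 8 (62.5%).

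The largest differences from WT in the list were those of *Ifit1bl1*, *Ifit1* and *Isg15*, and *Ifit* proteins are known to bind foreign RNA. *Ifit1bl1* was at 0.956 and 1.29 FPKM in WT, 14.9 and 17.6 in AKFP and 24.99 and 48.45 in KO, a rise of 3.02 ± 0.29 over WT (adjusted p = 0.000403). *Ifit1* went from 0.684 and 0.872 in WT to 5.51 and 6.87 in AKFP (2.01 ± 0.31, adjusted p = 0.00246), against 11.5 and 23.7 in KO. In both genes AKFP libraries lay between WT and KO with no overlap. *Lgals3bp*, a secreted glycoprotein, was at 95.01 and 108.4 in WT, 190.4 and 198.5 in AKFP and 230.2 and 250.3 in KO, and AKFP was not called against KO (−0.30). *Ifit3* (1.11) and *Ifit3b* (0.85) lost their calls when any 1 of the 4 libraries was left out, and *Ifit2* was not tested. The GTPase *Irgm1* rose as well, from 3.75 and 3.47 to 10.2 and 10.6 (1.304 ± 0.196, adjusted p = 0.00226), and was not called against KO (−0.60). Of 15 interferon-induced GTPases, 13 did not pass the filter.

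Other members lay near the WT level or below it. *Oas1a*, a sensor of double-stranded RNA, was at 6.39 and 7.28 FPKM in WT and 6.11 and 6.29 in AKFP, a difference within 1.5-fold (−0.12 ± 0.19), while the KO libraries held 33.0 and 42.6. *Bst2*, which tethers virus particles to the cell, was at 26.7 and 23.9 in WT and 29.0 and 36.9 in AKFP (0.36 ± 0.19, adjusted p = 0.163), against 87.5 and 114.6 in KO. *Irf7*, a transcription factor of the response, was only slightly above WT, with 2.07 and 2.56 in WT, 3.74 and 3.37 in AKFP and 20.9 and 24.9 in KO. That call (0.46, adjusted p = 0.0345) did not pass without WT library 1 or either AKFP library. *Ifi35* fell below WT, from 20.7 and 22.5 to 10.9 and 12.8 (−0.82 ± 0.12, adjusted p = 0.00184), though it was not called in KO (0.19). The 12 untested members were at or under 1.78 FPKM in every WT and AKFP library. Among them *Ifi27l2a* was at 1.78 and 0.501 in WT, 0.109 and 0.736 in AKFP and 22.4 and 29.8 in KO.

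**Figure D4:**
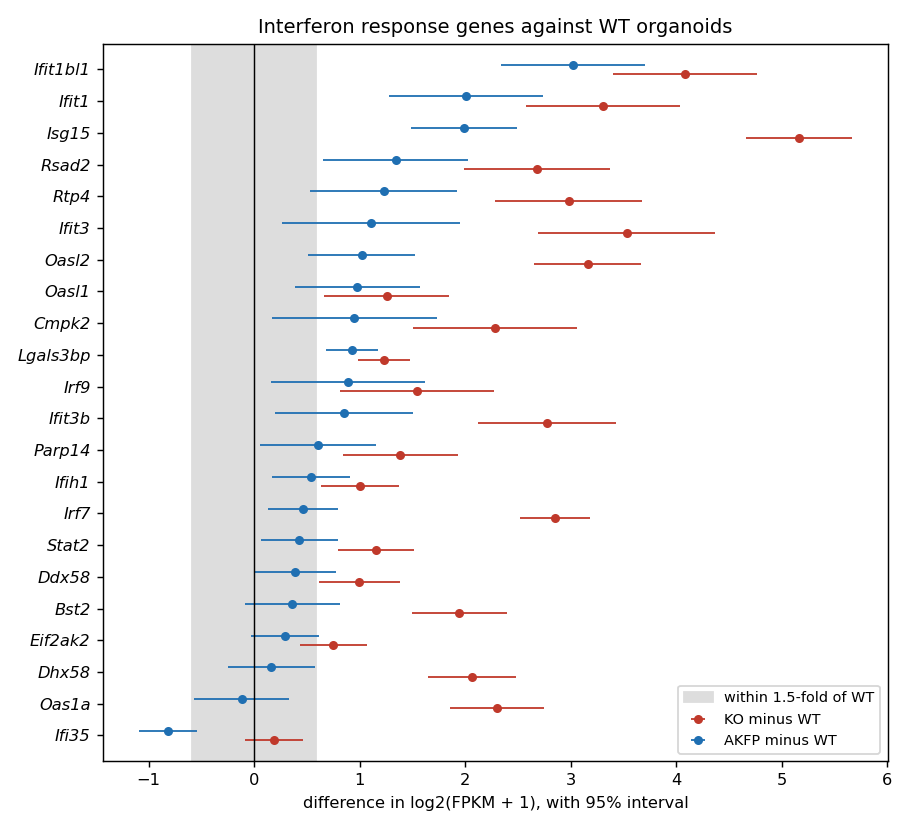
Differences from WT on the log2(FPKM + 1) scale with 95% intervals for 22 of the 23 tested interferon genes, KO minus WT in red and AKFP minus WT in blue, with a grey band within 1.5-fold of WT. Isg15 lies at 5.16 in KO and 1.99 in AKFP, Oas1a at 2.30 and −0.12, and Ifi35 lies below the band in AKFP.

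Antigen presentation genes of MHC class I, which interferon also induces, lay mostly at or below WT in AKFP. Of 23, 19 were tested: 2 were called higher, 9 lower and 8 read like WT (median −0.33), where KO against WT gave 12 higher and 1 lower. The class I heavy chain *H2-K1* was at 183.1 and 161.8 FPKM in WT and 187.1 and 188.5 in AKFP (0.13), and its light chain *B2m* at 236.1 and 229.7 and at 218.1 and 234.4 (−0.04): both read like WT, beside 265.9 and 277.7 for *H2-K1* in KO. Some nonclassical genes fell below WT, *H2-Q10* from 38.0 and 35.9 to 7.33 and 6.51 (−2.26 ± 0.08, adjusted p = 1.41e-05), together with *H2-T3* (−1.87) and *H2-Q6* (−1.32). The nonclassical *H2-T22* read like WT (0.21, adjusted p = 0.0545). *H2-Q10* was not called in KO (−0.16). Genes of the H2 cluster have near-identical copies and differ between mouse strains, so reads may be split between them. The count of higher members was 1 without WT library 1 or AKFP library 1.

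Among stem cell markers, *Olfm4* read like WT and *Lgr5* was slightly lower. *Olfm4* (chr14:79984081-80023139, plus strand, mm10), a secreted glycoprotein of crypt base stem cells, was at 466.5 and 547.9 FPKM in WT, 504.0 and 509.1 in AKFP and 216.8 and 226.3 in KO. Both AKFP libraries lay between the WT libraries (difference 0.00, adjusted p = 0.99) and above both KO libraries (1.19, called). *Lgr5* (chr10:115450311-115587780, minus strand), the R-spondin receptor, was at 14.6 and 15.7 in WT, 11.3 and 11.5 in AKFP and 9.23 and 9.55 in KO. It was lower than in WT (−0.38 ± 0.08, adjusted p = 0.00807), though within 1.5-fold, and AKFP was not called against KO (0.25). In bulk libraries, fewer cells of a type and less RNA per cell cannot be told apart.

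Of 30 stem cell markers, 27 were tested, 9 were called higher, 6 lower, and 11 read like WT, with a median of −0.03, beside 1 higher and 9 lower for KO against WT. The shares called are near those over all tested genes (25.8% and 19.2%) and single out nothing about the list. *Vdr*, the vitamin D receptor, was lower in AKFP (20.8 and 22.4 FPKM) than in WT (39.5 and 43.5), with a difference of −0.91 ± 0.09, beside −0.87 in KO and no call between AKFP and KO (−0.04). *Smoc2* (−0.52) and *Igfbp4* (−1.39), both secreted proteins of crypt base cells, were also lower. *Aqp4*, a water channel, rose from 21.6 and 23.7 to 50.2 and 50.4 (1.12 ± 0.09, adjusted p = 0.000246), and *Cd44* (0.94) and the ephrin receptor *Ephb2* (0.65) rose with it. *Nrn1*, a membrane-anchored neuritin, was at 9.51 and 9.53 in WT, 9.05 and 9.35 in KO and 0 and 0.022 in AKFP. It shares its locus with *Fars2* on the other strand, and it passed the filter only through WT, so it was bound to differ. Leaving out WT library 1 or AKFP library 1 left 5 markers called higher. Of 8 reserve stem cell markers, 7 were tested: *Bmi1* read like WT (0.18) and *Tert*, the telomerase subunit, was lower (−0.64).

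Wnt target genes were mostly at the WT level or above it. Of 26, 18 were tested, 10 called higher, 1 lower and 5 read like WT, with a median of 0.42, beside 4 higher and 1 lower in KO. *Ccnd2*, a G1 cyclin, was at 41.2 and 44.5 FPKM in WT and 70.8 and 69.9 in AKFP (0.71 ± 0.08, adjusted p = 0.000643). *Cdx1*, an intestinal homeobox factor, rose from 110.0 and 111.7 to 162.2 and 165.2 (0.56), and *Apcdd1*, a Wnt inhibitor, from 0.725 and 0.914 to 3.32 and 3.01 (1.20). *Apcdd1* passed the filter only through AKFP, so it was bound to differ from WT. *Axin2*, the feedback inhibitor of the pathway, read like WT (−0.05), with 30.2 and 31.5 in WT and 33.5 and 26.4 in AKFP. *Myc* was at 37.4 and 36.9 in WT and 38.2 and 52.1 in AKFP (0.26, adjusted p = 0.153) and was called only without AKFP library 1.

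The Notch and secretory choice list held mostly genes at WT level: of 14 tested of 18, 10 read like WT and 4 were called higher, near the 25.8% over all tested genes. *Atoh1*, the factor that commits daughters to the secretory fate, was at 5.74 and 5.57 FPKM in WT, 11.3 and 12.3 in AKFP and 8.91 and 8.86 in KO (0.94 ± 0.07, adjusted p = 0.000196). The Notch ligand *Dll1* (−0.02) and the Notch target *Hes1* (−0.24) read like WT. Without WT library 1 or AKFP library 1, 2 members were called higher, and without AKFP library 2, 1. *Notch2* (0.61) was among the calls lost in each of these.

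Proliferation genes differed little. All 32 cell cycle genes were tested, 25 read like WT, 9 were called higher and 3 lower, with a median of 0.17, beside 3 higher and 8 lower in KO. Against KO, 16 were called higher. *Ccne1*, the cyclin of S phase entry, was at 3.86 and 4.72 FPKM in WT and 8.70 and 8.87 in AKFP (0.89 ± 0.11, adjusted p = 0.00103), and *Birc5* (0.58) and *Rrm2* (0.48) were higher too. *Mki67* was at 33.2 and 38.7 in WT and 52.2 and 47.5 in AKFP (0.46, adjusted p = 0.0403), but the call did not pass when any 1 of the 4 libraries was left out. *Pcna*, the sliding clamp of DNA polymerase, was lower, with 77.4 and 72.1 in WT and 56.6 and 57.0 in AKFP (−0.39), and lost its call without WT library 1. Without either WT library 4 members were called higher, and without either AKFP library 3. The count of lower calls was at most 1 with any 1 of the 4 libraries left out. The share called higher, 9 of 32, is near the 25.8% over all tested genes.

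Paneth cell genes were mostly above WT, and most of them above the KO too. Of 16, 14 were tested and 11 were called higher, with a median of 1.20, beside 4 higher in KO (median 0.42). Against KO, 9 were called higher. *Lyz1*, the lysozyme of Paneth cells, was at 644.1 and 597.1 FPKM in WT, 737.0 and 660.3 in KO and 1605 and 1616 in AKFP (1.38 ± 0.10, adjusted p = 0.000195). The AKFP libraries lay above both WT and both KO libraries, and KO was not called against WT (0.17). *Mmp7*, the protease that activates defensins, rose from 50.1 and 40.3 to 159.2 and 161.3 (1.81), the antimicrobial ribonuclease *Ang4* from 299.3 and 215.3 to 1214 and 1268 (2.28), and the lectin *Itln1* by 1.39. The alpha-defensin *Defa22* was at 92.3 and 69.0 in WT and 586.6 and 593.8 in AKFP (2.87), and *Defa32* at 155.9 and 116.1 and at 1612 and 1782 (3.65 ± 0.14, adjusted p = 2.03e-05). Alpha-defensin genes have near-identical copies and vary between strains in number, so these values may mix genes. *Pla2g2a*, the gene with the largest rise among those tested (5.96 ± 0.11, adjusted p = 9.06e-07), is a member of this list and is known to differ between strains.

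Goblet cell genes were mostly above WT in AKFP. All 14 were tested, 11 were called higher and 2 read like WT, with a median of 0.99, beside 9 higher and 1 lower in KO. Against KO, 4 were called higher and 1 lower, beside 1591 and 1491 of all 11783 tested genes. *Clca1*, a secreted protease of the mucus, was at 9.35 and 8.43 FPKM in WT, 76.1 and 71.5 in AKFP and 78.9 and 88.9 in KO (2.92 ± 0.09 over WT, adjusted p = 1.17e-05). AKFP was not called against KO (−0.18). The mucus protein *Fcgbp* (1.49), the gel-forming mucin *Muc2* (1.31) and the trefoil factor *Tff3* (0.94) were higher than in WT. *Guca2a*, guanylin, rose from 109.6 and 84.2 to 343.1 and 377.2 (1.89), above the KO libraries at 165.7 and 170.1. *Zg16*, a mucus lectin, was at 27.3 and 18.1 in WT, 54.1 and 52.9 in AKFP and 137.7 and 142.0 in KO, higher than WT (1.23) and lower than KO (−1.37).

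Enteroendocrine genes went both ways from WT in AKFP, while all calls in KO were higher. Of 22, 18 were tested, 8 were called higher, 4 lower and 5 read like WT, where KO gave 13 higher, and AKFP against KO gave 3 higher and 13 lower. The largest rises in the list were those of 3 peptide genes. *Nts*, neurotensin, was at 3.02 and 2.41 FPKM in WT, 3.55 and 4.78 in KO and 31.5 and 30.9 in AKFP (3.12 ± 0.18, adjusted p = 0.000104). *Pyy*, peptide YY, went from 1.44 and 1.26 to 9.80 and 9.85 (2.20), and *Gcg*, which encodes glucagon-like peptides, from 36.7 and 28.6 to 122.7 and 119.5 (1.87). *Gip*, the glucose-dependent insulinotropic peptide, fell from 135.3 and 93.3 to 47.4 and 40.1 (−1.35 ± 0.18, adjusted p = 0.00137). *Sst*, somatostatin, fell from 22.97 and 10.74 to 2.86 and 6.20 (−1.67, adjusted p = 0.0119), a call lost without WT library 1 or AKFP library 1. The granule protein *Chga* was at 43.3 and 33.5 in WT, 42.1 and 36.1 in AKFP and 81.3 and 81.1 in KO, so it read like WT (0.03), as did the serotonin enzyme *Tph1* (0.12) and tachykinin *Tac1* (−0.23). *Cck*, cholecystokinin, rose (0.91), and *Ghrl*, ghrelin, read like WT (−0.18). The endocrine factors *Neurod1* (0.60) and *Insm1* (0.88) were higher than in WT. Lower calls numbered 1 without WT library 1 or AKFP library 1 and 2 without AKFP library 2. Of 12 tuft cell markers, 3 were tested, and *Cd24a* (−0.02) and *Sh2d6* (−0.17) read like WT. *Pou2f3*, the factor that defines tuft cells, was at 1.21 and 1.24 in WT and 0.838 and 0.612 in AKFP (−0.37, adjusted p = 0.0921).

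Some genes that mark the position along the gut also differed. *Fabp6*, the bile acid binding protein of the ileum, was listed at 0 in both WT libraries and was at 20.97 and 18.56 FPKM in AKFP. *Slc10a2*, the ileal bile acid transporter, was at 0.063 and 0.227 in WT, 0.581 and 0.713 in KO and 4.69 and 5.63 in AKFP (2.43 ± 0.13, adjusted p = 8.17e-05). *Fabp6* and *Slc10a2* passed the filter only through AKFP, so they were bound to differ from WT. *Gata4*, which is known to mark the duodenum and jejunum, fell from 50.3 and 53.8 to 28.4 and 28.9 (−0.84 ± 0.07, adjusted p = 0.00023), with KO at 53.8 and 52.0, and *Onecut2* was lower too (−0.92). *Cdx2* (0.04), *Pdx1* (0.01) and *Gata6* (−0.05) read like WT. Of 16 regional genes, 12 were tested, 6 called higher and 2 lower, beside 25.8% and 19.2% over all tested genes. The part of the gut the organoids came from is not given in the labels, and a regional difference of the lines was not tested.

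**Figure D5:**
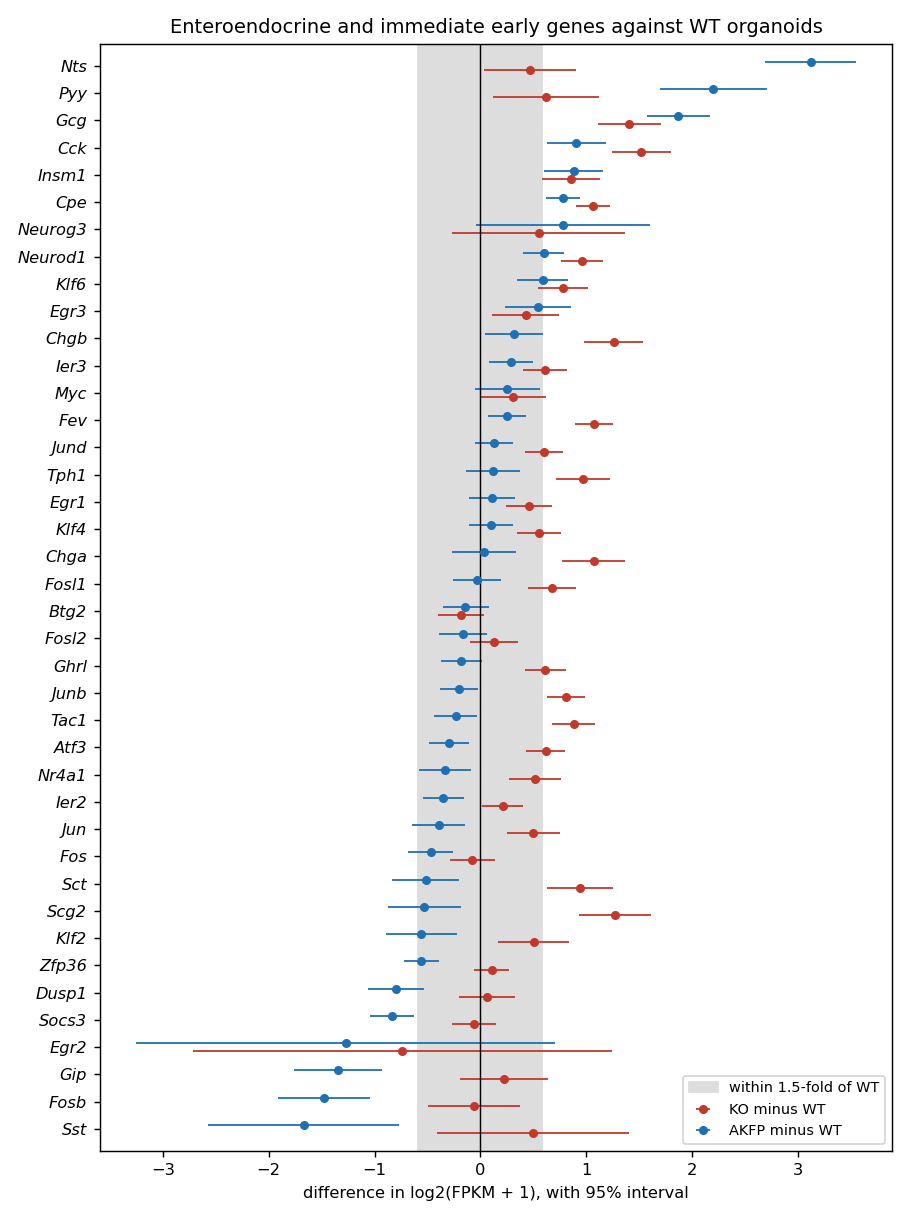
Differences from WT on the log2(FPKM + 1) scale with 95% intervals for the tested enteroendocrine and AP-1 genes, KO minus WT in red and AKFP minus WT in blue, with a grey band within 1.5-fold of WT. Nts (3.12) and Pyy (2.20) stand far above WT in AKFP, Chga lies in the band, and Fosb (−1.48) and Socs3 (−0.84) lie below it.

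AP-1 and immediate early genes, which respond to growth factors and stress, were more often called lower than higher in AKFP, and higher in KO. All 22 were tested, 3 were called higher, 10 lower and 12 read like WT, with a median of −0.25, where KO gave 11 higher and a median of 0.45. Against KO, 16 were called lower. *Fos* was at 299.1 and 303.7 FPKM in WT and 212.9 and 222.2 in AKFP (−0.47 ± 0.09, adjusted p = 0.00609). The phosphatase *Dusp1* fell from 35.3 and 39.0 to 19.3 and 22.6 (−0.80), the cytokine brake *Socs3* from 12.4 and 13.2 to 7.19 and 6.30 (−0.84), and the mRNA decay factor *Zfp36* was lower too (−0.56). *Junb* was at 138.1 and 132.7 in WT, 121.0 and 114.6 in AKFP and 247.7 and 227.7 in KO, and read like WT (−0.20), as did *Jund* (0.13). *Klf6* rose (0.59), close to its KO difference (0.78). Without either WT library or AKFP library 1, 6 members were called lower, and without AKFP library 2, 1 was called higher.

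Absorptive enterocyte genes were mostly below WT in AKFP, and 6 of them were also called lower than in KO. Of 26, 23 were tested, 1 was called higher, 17 lower and 2 read like WT, with a median of −1.26, beside 1 higher and 12 lower in KO (median −0.71). Summed over the list, levels were 5003 and 5089 FPKM in WT, 2362 and 2452 in KO and 1479 and 1620 in AKFP. *Fabp1*, the fatty acid binding protein, was at 1673 and 1471 in WT, 669.7 and 639.7 in KO and 247.5 and 193.0 in AKFP (−2.84 ± 0.23, adjusted p = 0.00024), and was lower than in KO (−1.58). The retinol binding protein *Rbp2* (−2.12), the fructose carrier *Slc2a5* (−1.98) and the brush border phosphatase *Alpi* (−1.45) were lower as well. *Cdhr5*, of the brush border, was the 1 member called higher (0.38), and not without WT library 1 or AKFP library 2. *Vil1*, villin, read like WT (−0.10), with 130.6 and 139.5 in WT and 128.2 and 124.0 in AKFP.

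Detoxification and lipid genes, which enterocytes carry, were lower in the same libraries. Of 24 cytochrome P450 and glucuronidation genes, 23 were tested, 20 called lower and 1 higher (median −1.20), beside 16 lower and 1 higher in KO. *Ces1d*, a carboxylesterase, was at 20.0 and 15.4 FPKM in WT, 4.97 and 4.66 in KO and 0.639 and 0.908 in AKFP (−3.39 ± 0.22, adjusted p = 0.000135). *Ugt2b5* fell from 18.6 and 20.9 to 1.99 and 2.91 (−2.60), the retinaldehyde dehydrogenase *Aldh1a1* from 48.9 and 55.8 to 8.13 and 10.6 (−2.37), and *Cyp3a25* fell as well (−2.05). *Cyp2e1* was the 1 called higher (1.03), and not without WT library 2 or AKFP library 2. Of 24 genes of fatty acid oxidation and PPAR targets, 22 were tested, 16 called lower and 6 read like WT (median −0.50), beside 7 lower in KO. *Acadl*, an acyl-CoA dehydrogenase, fell from 70.4 and 73.7 to 26.1 and 25.5 (−1.45). *Angptl4*, a lipase inhibitor, was at 2.74 and 3.02 in WT, 3.04 and 3.82 in KO and 0.404 and 0.371 in AKFP (−1.48 ± 0.15, adjusted p = 0.000533). *Angptl4* and *Ces1d* passed the filter only through WT, so they were bound to differ. *Cpt1a*, which admits fatty acids to the mitochondrion, read like WT (−0.11).

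Of 22 cholesterol synthesis genes, 21 were tested, 9 called lower, 2 higher and 11 read like WT, with *Insig1*, the sterol sensor's partner, at 210.7 and 215.5 FPKM in WT and 114.1 and 114.5 in AKFP (−0.89 ± 0.08, adjusted p = 0.000354). *Srebf2*, the transcription factor of the pathway, read like WT (−0.08), and *Mvd* (−0.66) and *Fdps* (−0.49) fell. Without AKFP library 1, 5 members were called lower, and with any 1 of the 4 libraries left out at most 1 was called higher. All 22 redox genes were tested, 12 called lower and 3 higher. Over all tested genes, 19.2% were called lower, 25.8% higher and 51.6% read like WT. The share of cholesterol genes that read like WT is near the last of these. The glutathione transferase *Gstm3* fell from 634.4 and 638.6 to 158.7 and 171.5 (−1.94), and catalase, *Cat* (−1.15), and the quinone reductase *Nqo1* (−1.09) fell too. The cystine carrier *Slc7a11* (1.07) and haem oxygenase *Hmox1* (0.77) rose.

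Genes of the m6A machinery were mostly above WT. Of 19, *Mettl3* included, 18 were tested, 13 called higher, 2 lower and 3 read like WT, with a median of 0.52, beside 5 higher and 1 lower in KO. The reader *Ythdf2*, which directs marked RNA to decay, was at 11.5 and 13.4 FPKM in WT, 21.95 and 22.36 in KO and 28.8 and 29.5 in AKFP (1.17 ± 0.09, adjusted p = 0.000206). *Ythdf1* rose from 20.67 and 20.96 to 45.0 and 43.6 (1.06), the nuclear reader *Ythdc1* by 0.89 and the writer adaptor *Rbm15* by 0.96. *Mettl14*, the partner of *Mettl3* in the writer, was lower, with 5.09 and 5.32 in WT and 4.04 and 3.72 in AKFP, within 1.5-fold (−0.35 ± 0.08, adjusted p = 0.0115), a call lost without WT library 2 or AKFP library 2. *Igf2bp3*, a binder of marked RNA, was lower too (−0.98). Without WT library 1 or either AKFP library, 8 were called higher, and without WT library 2 or AKFP library 2, 1 was called lower.

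Of 20 ribosome biogenesis genes, 19 were tested, 9 called higher and 9 read like WT (median 0.29). *Ncl*, nucleolin, was at 72.8 and 73.6 FPKM in WT, 119.1 and 118.5 in KO and 152.2 and 157.1 in AKFP (1.07 ± 0.07, adjusted p = 0.00014), and *Polr1b*, of RNA polymerase I, rose by 1.28, while *Npm1* read like WT (0.02). Without WT library 2, 1 member was called lower. Of 16 genes of the unfolded protein response, 5 were called higher, near the 25.8% over all tested genes, and 12 read like WT: the chaperone *Hspa5* went from 127.8 and 123.5 to 242.0 and 256.3 (0.98) and *Pdia4*, a disulfide isomerase, from 50.1 and 52.5 to 100.3 and 109.5 (1.02). Leaving out WT library 1 or AKFP library 2 left 3 called higher.

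Stress, p53 and death genes showed no single direction, and their shares of calls are to be read against 25.8% higher and 19.2% lower over all tested genes. Of 22 genes of the integrated stress response, 20 were tested, 7 called higher, 5 lower and 11 read like WT. *Ppp1r15a*, which ends the response, was at 21.3 and 21.9 FPKM in WT, 47.4 and 46.4 in KO and 16.5 and 17.0 in AKFP (−0.35 ± 0.06, adjusted p = 0.00462). *Ddit3* was below WT (−0.80) and *Chac1* (1.02) and the serine synthesis gene *Psat1* (0.81) above. Lower calls numbered 3 without WT library 1 and 2 without AKFP library 2. Of 24 p53 targets, 22 were tested, 6 called higher, 6 lower and 13 read like WT. The death genes *Pmaip1* (45.4 and 45.1 to 28.6 and 29.4, −0.63) and *Bbc3* (−0.84) fell, and *Plk2* rose (0.62), while *Bax* (−0.17) and *Phlda3* (0.08) read like WT. *Cdkn1a*, p21, was at 62.8 and 61.9 in WT and 45.3 and 47.2 in AKFP (−0.42, adjusted p = 0.0206), a call that did not pass when any 1 of the 4 libraries was left out. Without WT library 1 or AKFP library 2, 3 p53 targets were called higher, and without AKFP library 1, 2. Without either WT library 3 were called lower, and without AKFP library 2, 2. Of 23 cell death genes, 20 were tested, 7 called higher, 5 lower (3 without WT library 1 or AKFP library 2) and 11 read like WT: *Birc3*, a death inhibitor, rose (1.55) and *Bak1* fell (−0.89).

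Tested genes of the fetal-like, regenerative state were mostly above WT in AKFP. Of 23 fetal-like and YAP target genes, 15 were tested, 11 called higher and 1 read like WT (median 1.002), beside 10 higher in KO (median 1.12). *Ly6a*, the surface antigen Sca-1, was at 8.81 and 8.25 FPKM in WT, 95.7 and 96.8 in AKFP and 53.9 and 112.7 in KO (3.35 ± 0.38, adjusted p = 0.000728), and AKFP was not called against KO (0.30). Alleles of *Ly6a* are known to differ between strains. *Anxa1*, annexin A1, rose from 1.71 and 1.65 to 15.5 and 18.3 (2.74), with KO at 10.3 and 11.5. Some ligands of the EGF receptor were also high: *Areg*, amphiregulin, was at 109.0 and 104.6 in WT, 225.2 and 252.3 in AKFP and 318.4 and 362.1 in KO (1.15). *Ereg*, epiregulin, was at 0 and 0.011 in WT, 0.313 and 0.085 in KO and 4.29 and 5.34 in AKFP, so it passed the filter only through AKFP. The ligand *Hbegf* (−0.51) and the receptor *Erbb2* (−0.43) fell, and *Egfr* rose (0.56). Of 16 EGF family genes, 13 were tested, 5 called higher and 2 lower, beside 25.8% and 19.2% over all tested genes.

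Epithelial defence genes went both ways: of 18, 12 were tested, 6 called higher, 3 lower and 3 read like WT, and the list summed to 1142 and 1130 FPKM in WT and 1079 and 1145 in AKFP. *Duox2*, an oxidase that makes hydrogen peroxide at the cell surface, was at 1.39 and 1.44 in WT, 6.30 and 7.49 in KO and 27.2 and 27.2 in AKFP (3.54 ± 0.12, adjusted p = 1.51e-05). Its maturation factor *Duoxa2* went from 1.57 and 1.25 to 20.8 and 25.2 (3.31), the nitric oxide synthase *Nos2* from 0.569 and 0.595 to 5.94 and 6.76 (2.22) and the chemokine *Cxcl1* rose by 1.68. *Nos2* passed the filter only through AKFP, so it was bound to differ from WT. The lectin *Reg3g* rose (1.14), its relative *Reg3a* fell (−2.07), and *Pigr*, which carries antibodies across the epithelium, read like WT (0.14). Without WT library 1 or AKFP library 2, 1 member was called lower. Of 16 BMP and TGF-beta genes, 12 were tested and 8 read like WT, and *Id1*, a target of the pathway, fell from 21.4 and 18.8 to 10.1 and 9.06 (−0.99 ± 0.15, adjusted p = 0.00226), while 2 rose, of which *Bmpr1a* did not pass without WT library 1 or AKFP library 2, and the other, *Tgfb1*, rose by 0.93.

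Among single genes with the largest differences, several were also called between AKFP and KO, all those of this paragraph among them. *Suox*, sulfite oxidase, was at 4.47 and 4.19 FPKM in WT, 8.395 and 9.376 in KO and 38.9 and 40.9 in AKFP (2.94 ± 0.08, adjusted p = 5.54e-06). *Pyroxd2* was at 14.4 and 13.1 in WT, 12.2 and 10.7 in KO and 0.963 and 0.802 in AKFP (−2.97), *Aldh1l1*, of folate metabolism, at 22.2 and 19.9, 18.2 and 16.6, and 2.53 and 2.64 (−2.62), and *Rgcc* at 91.8 and 89.8, 77.7 and 74.0, and 13.5 and 14.6 (−2.61). KO was not called against WT in *Pyroxd2*, *Aldh1l1* or *Rgcc*. *Exosc6* was at 24.97 and 25.24 in WT, 44.2 and 43.8 in KO, 39.6 and 4.77 in AKF and 0.016 and 0.025 in AKFP (−4.68 ± 0.76, adjusted p = 0.00303). It overlaps *Aars* on the same strand, so the counting may assign its reads either way. The noncoding gene *AI506816* was at 28.9 and 32.6 in WT, 39.9 and 41.4 in KO and 0.080 and 0.032 in AKFP. *Pyroxd2*, *Exosc6* and *AI506816* passed the filter only through WT, so they were bound to differ. *Sumo2* fell from 34.6 and 19.7 to 3.22 and 3.88 (−2.58, adjusted p = 0.00807) and did not pass without WT library 1 (adjusted p = 0.0511).

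Other large differences were called in KO as well. *Ugt1a5* was at 26.9 and 28.7 FPKM in WT and at 0.054 or less in the other 6 organoid libraries (−4.82 ± 0.09 in AKFP, adjusted p = 9.06e-07). It shares its locus with 10 genes on the same strand, whose reads the counting may move between them. *Ugt1a5* passed the filter only through WT, so it was bound to differ. *Scamp4*, a membrane trafficking gene whose locus overlaps other genes, was at 4.83 and 6.61 in WT, 44.1 and 42.5 in KO and 47.6 and 51.9 in AKFP (2.93). *Ctrb1*, a chymotrypsinogen, was at 18.0 and 15.6 in WT and 1.20 and 0.776 in AKFP (−3.17), with −3.50 in KO. *Arg2*, an arginase, fell in both, by −2.52 in AKFP (41.3 and 47.6 to 6.28 and 7.57) and −1.19 in KO.

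Called genes lay on every autosome, from 41.1% of tested genes on chromosome 16 to 51.6% on chromosome 19. In 207 windows of 10 Mb with at least 20 tested genes (mm10 annotation), the share called ran from 21.7% to 63.9% with a median of 44.9%. The highest share lay on chromosome 6 from 70 to 80 Mb, where 8 genes were higher and 15 lower of 36. That window holds *Fabp1*, *Reg3a* and *Capg*, a gelsolin-like actin capping protein (1.34, and 1.65 in KO).

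A set of genes chosen from tissue, which shares no library with the organoids, was set beside these values. In Lgr5-high crypt cells from mice with *Mettl3* deleted, taken at day 4, the same kind of fit called 97 genes higher and 46 lower than in WT of 12471 tested. The labels list 4 treatment days for these knockout libraries, and an effect of the treatment was not tested. Of the 97, 88 were tested in organoids: 51 were called higher in AKFP, 12 lower, and 18 read like WT, with a median of 0.48. KO organoids gave 57 higher and 2 lower for them (median 0.68). Of the 46, 38 were tested: 2 were called higher in AKFP, 31 lower and 5 read like WT, with a median of −0.80, beside 5 higher and 24 lower in KO (median −0.46). Over all tested organoid genes, 25.8% were called higher and 19.2% lower in AKFP. KO against WT called 1955 of the 11783 higher and 1398 lower. *Gcg* was among the genes higher in the tissue (2.98) and in AKFP (1.87). *Mt2*, also higher in the tissue (3.48), was lower in AKFP (−0.61), and *Chga* (3.02 in the tissue) read like WT (0.03).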

How the data were processed

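RNA-seq of sorted living organoid cells was analysed in 8 libraries, 2 each of WT, KO, AKF and AKFP, and 10 tissue libraries served to choose 1 gene set. Per the labels' protocols, RNA was taken with RNeasy and libraries were made with a NEBNext Ultra RNA kit, which is not stated to keep strand. HISAT2 2.1.0, StringTie 1.3.3b and the build mm10 are named in the submitters' processing notes, with no role given. The values the authors deposited are FPKM: the tissue files' headers say so, and the organoid table, which names no unit, has the same genes and range of values, so its unit is inferred. FPKM keep no read counts, so depth was estimated from the steps of value times length in 21507 single-exon genes and covers this only roughly.

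Gene symbols came from GENCODE M21 (GRCm38, the same assembly as mm10), which named 54809 of 54838 IDs. On log2(FPKM + 1), limma 3.58.1 (lmFit, contrasts, eBayes with trend, R 4.3.3) was fitted to all 8 libraries with 1 mean per group (4 residual degrees of freedom), two-sided, with Benjamini-Hochberg adjustment over 11783 genes. The fit was tested on simulated data. The labels do not say that replicates were separate cultures, so p-values measure only the spread between these libraries. No pair of libraries held identical values. Genes were named by rule. The rule took the 12 largest rises and 12 largest falls that were called, with libraries apart between AKFP and WT. They had a mean of at least 5 in either group (predicted genes, pseudogenes and small RNAs left out). It also took the on-off genes, genes of the 3 windows with most calls, and the factors and markers. From each list it took up to 4 members with the smallest p and up to 2 that read like WT, those with the narrowest interval. Members named beyond that, such as *Lyz1*, *Chga*, *Smoc2* or *Gip*, were chosen after their values were seen. Members and lists were chosen with earlier results of these data known. Alternatives were pseudocounts of 0.1 and 0.5, other filters and scalings, other fits and leaving out each library. Some genes are not reported here. Tissue comparisons were not analysed further here.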

Additional observations from a re-analysis of the deposited data

Results flagged for a closer look

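On chromosome X, outside the autosomal genes that were tested, *Xist* had a mean of 40.4 FPKM in the 2 AKFP libraries and of 0.009 in the 2 WT libraries. It is listed here because the signal lies in genes that the comparison does not use and is above the level of the controls.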

How the results depend on the processing

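No called gene among those named turned its direction in any alternative run. Of 190 named genes, 149 were called between AKFP and WT, and 128 of these kept the call and sign in every alternative. With 1 of the compared libraries left out, calls between AKFP and WT numbered 3417 to 4070 (3417 without WT library 1, 3529 without AKFP library 2), with 1941 to 2382 higher and 1476 to 1732 lower. In the same way KO against WT gave 1652 to 1890, AKF against WT 2052 to 2769 and AKFP against KO 775 (without KO library 1) to 1523. In these fits the lone library is assumed to vary like the other groups. With no filter on low values, 17302 of 24717 genes lay within 1.5-fold of WT. The other alternatives left 4035 (filter at 5 FPKM, 7814 genes tested) to 5483 calls. Scaling by the median of ratios moved the median difference of all genes by −0.057 and the higher share of calls from 57.3% to 49.5%. With a filter at 5 FPKM, 7 interferon genes were called higher, and with no filter 8, the cause of which was not tested. *Purb* lost its call with no filter (adjusted p = 0.0591) and with equal sums (0.0523). The fit with a replicate block called 5483 genes between AKFP and WT and 3710 between AKF and WT, but deviations of same-numbered libraries correlated at −0.052 to 0.122, so the samples share only a number. An estimated depth of 19800000 to 21800000 fragments and 2 libraries a side limit what low genes can show.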
